A study of Mus musculus with 8 samples.

Results

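Serpina3n and Itih4, the genes of a secreted serine protease inhibitor and of a plasma heavy-chain protein, had higher transcript levels in the livers of mice 3 h after interleukin 1 beta (IL1B). They belong to a group of 10 genes made up of 8 members of the Serpina3 cluster on chromosome 12 (Serpina3c, Serpina3f, Serpina3g, Serpina3h, Serpina3i, Serpina3k, Serpina3m and Serpina3n) and of Itih3 and Itih4 on chromosome 14. Members were taken by name from the array features annotated with exactly 1 gene symbol, averaged per symbol. By this rule 4 of the 10 members were measured, Serpina3i, Serpina3n, Itih3 and Itih4, each by 1 feature, out of 22180 genes in all. The other 6 members had no such feature in the annotation used here and their transcripts were not analysed here.

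Serpins are protease inhibitors that trap their target by a suicide mechanism, in which the protease cleaves an exposed loop of the inhibitor and is locked to it. Serpina3 genes are the mouse counterparts of a single human gene for alpha-1-antichymotrypsin, an acute-phase protein that the liver secretes. The product of Serpina3n is known to inhibit neutrophil elastase, cathepsin G and granzyme B. Itih3 and Itih4 encode heavy chains of the inter-alpha-trypsin inhibitor (ITI) family. Heavy chain 3 circulates joined to bikunin, the small protease inhibitor encoded by Ambp, and can be transferred from it to hyaluronan, whereas the product of Itih4 does not carry bikunin and is a substrate of plasma kallikrein.

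Liver RNA of 8 wild-type adult male mice was hybridized to 8 Affymetrix MoGene 2.0 ST arrays, 1 per mouse. Vehicle was given to 4 of the mice (PBS group), while the 4 mice of the IL1B group were injected into the peritoneum with 0.5 µg of recombinant mouse IL1B, a pro-inflammatory cytokine, 3 h before the liver was taken. The mice were bought at 7 weeks of age and kept for 2 weeks before the experiment. PBS mice were labelled with the strain C57BL/6J and IL1B mice with C57BL/6 x CBA, while the series description named C57BL/6J only, so the labels do not let strain and treatment be told apart. All values below are log2 values after robust multi-array averaging (RMA), and a log2 fold change is the IL1B mean minus the PBS mean. The scale of every array stopped at a ceiling of 19.93, and values of 18.93 or more are called the upper end of the scale here, where a change may be understated. Background, the highest antigenomic control of each array, lay between 6.65 and 7.08. Bulk liver RNA was measured, so more cells of a type and more RNA per cell cannot be told apart.

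The 5 Serpina3 members with a RefSeq promoter, taken as 250 bases before to 50 after the annotated start (GRCm38.p6), shared a run of 13 bases, and the stretch around it is shown because the measured members Serpina3n and Serpina3i differ there. The shared run and any match to the STAT motif (TTCNNNGAA, either strand) are in capitals, and each stretch is given 5′ to 3′ on the strand of its gene.
Serpina3n, chr12:104406580-104406646, plus strand: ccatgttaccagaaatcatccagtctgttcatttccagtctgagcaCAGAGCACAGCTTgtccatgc
Serpina3c, chr12:104153931-104153997, minus strand: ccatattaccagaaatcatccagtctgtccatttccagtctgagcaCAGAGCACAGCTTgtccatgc
Serpina3i, chr12:104263015-104263081, plus strand: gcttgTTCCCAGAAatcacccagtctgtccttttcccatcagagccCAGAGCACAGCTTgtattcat
Serpina3g, chr12:104236109-104236175, plus strand: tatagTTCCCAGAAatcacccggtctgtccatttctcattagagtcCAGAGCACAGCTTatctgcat
Serpina3f, chr12:104214409-104214475, plus strand: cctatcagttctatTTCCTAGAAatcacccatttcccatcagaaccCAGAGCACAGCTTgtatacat

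The run CAGAGCACAGCTT was present in 7 of 32851 promoters (0.0213%), those of the 5 Serpina3 genes, with 2 overlapping entries for Serpina3f, and that of the olfactory receptor gene Olfr374. Over the whole promoter, Serpina3n matched Serpina3c at 93.5% of aligned bases (275 of 294), and Serpina3i, Serpina3g and Serpina3f at 77.5%, 74.4% and 72.2%. For comparison, Serpina3n matched the unrelated Itih3 and Itih4 at 69.1% and 67.2% of aligned bases. The STAT motif, the letters bound by STAT3 and its relatives, was found in the promoters of Serpina3i, Serpina3g and Serpina3f, in each case upstream of the shared run, and not in those of Serpina3n and Serpina3c. It was found in 8.3% of all promoters. A kappa-B motif, bound by NF-kappa-B, was found in Serpina3i and Serpina3g and in 4.51% of all promoters. These are matches of letters only, on either strand, and say nothing of binding.

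The promoters of the measured heavy-chain genes are shown whole for comparison, with matches to the STAT motif, to the C/EBP motif (TTGCNNAA), to the kappa-B motif and to the TATA box (TATAAA) in capitals, on either strand and with no overlap among them.
Itih4, chr14:30886226-30886525, plus strand: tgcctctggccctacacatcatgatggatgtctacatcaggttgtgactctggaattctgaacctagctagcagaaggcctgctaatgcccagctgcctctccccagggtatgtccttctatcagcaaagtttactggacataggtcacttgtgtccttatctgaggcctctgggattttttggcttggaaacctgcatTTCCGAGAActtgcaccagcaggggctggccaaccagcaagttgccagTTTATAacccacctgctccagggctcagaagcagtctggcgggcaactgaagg
Itih3, chr14:30923538-30923837, minus strand: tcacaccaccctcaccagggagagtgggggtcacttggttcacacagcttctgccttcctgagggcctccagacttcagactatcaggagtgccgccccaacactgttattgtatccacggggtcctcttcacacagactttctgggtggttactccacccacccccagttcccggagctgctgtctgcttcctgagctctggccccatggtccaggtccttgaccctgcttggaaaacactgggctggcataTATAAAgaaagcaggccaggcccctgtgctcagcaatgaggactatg

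Itih4 held the STAT motif at positions -51 to -43, with the start base counted as 0, and a TATA box across the start. Itih3 held the letters of the TATA box at positions 3 to 8, after the start, and none of the other 3 motifs. The C/EBP motif was found in 10.8% and the TATA box in 13.6% of all promoters. Among the 7 members with a promoter sequence, 4 held the STAT motif, 2 the kappa-B motif, 1 the C/EBP motif and 4 the TATA box. The TATA matches of Serpina3c and Serpina3f lay at -132 to -127 and at -186 to -181. All of these are again matches of letters only.

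Serpina3n rose to the ceiling of the scale in every IL1B mouse. Its log2 values were 17.30, 17.68, 17.97 and 17.38 in PBS 1 to 4 and 19.93 in each of the 4 IL1B mice. Every IL1B array thus stood at the ceiling and every PBS array below the upper end of the scale, a pattern met by only 2 of the 22180 genes. The mean was 17.58 ± 0.30 in PBS (SD, n = 4), and the IL1B mean had no spread because the scale ended there. The log2 fold change was at least 2.35 (SE 0.16; limma adjusted p = 4.74e-05), which is at least 5.09-fold. The SE rests on the PBS arrays and on the shared variance of the model, and does not measure the spread among IL1B mice. Leaving out each array in turn kept the call 8 of 8 times, with log2 fold changes from 2.25 to 2.48.

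Itih4 rose from a level already close to the ceiling. Its log2 values were 18.47, 19.09, 18.79 and 18.74 in PBS and 19.58, 19.85, 19.60 and 19.43 in IL1B. The groups did not overlap, PBS 2 being the highest of the PBS arrays and IL1B 4 the lowest of the IL1B arrays. PBS mice averaged 18.77 ± 0.25 and IL1B mice 19.62 ± 0.17 (SD, n = 4). The log2 fold change was 0.85 (SE 0.16, limma adjusted p = 0.00952), and 0.66 after quantile normalization. All 4 IL1B arrays and PBS 2 were within 1 log2 unit of the ceiling, so this change may be understated. No IL1B array stood at the ceiling itself, so 0.85 is not a strict lower bound. Itih4 was called in 8 of 8 fits with 1 array left out, between 0.75 and 0.95.

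Itih3 was higher on average but varied among the IL1B mice and was not called. Its log2 values were 16.83, 17.38, 17.01 and 17.02 in PBS and 18.35, 18.79, 17.38 and 17.35 in IL1B. IL1B 1 and IL1B 2 stood above every PBS array, whereas IL1B 3 and IL1B 4 lay at the level of PBS 2, and IL1B 4 was below it. PBS mice averaged 17.06 ± 0.23 and IL1B mice 17.97 ± 0.72 (SD, n = 4), and the difference was 0.91 (SE 0.32; limma adjusted p = 0.0978). Leaving out 1 array moved this value between 0.64, without IL1B 2, and 1.12, without IL1B 4, and no such fit gave a call (adjusted p from 0.0552 to 0.22).

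Serpina3i was dim throughout. Its log2 values were 6.38, 6.14, 5.27 and 6.38 in PBS, each below the background of its array, and 8.05, 6.66, 6.91 and 6.83 in IL1B, each above it. The groups did not overlap, but IL1B 2, 3 and 4 were only just above background and IL1B 1 stood apart from them. The difference of 1.07 (SE 0.34) missed the threshold (limma adjusted p = 0.076), and with the PBS arrays raised to their background it was at least 0.32. Leaving out IL1B 1 gave 0.76. The probe sequences were not used here, so whether RNA of Serpina3n or of another Serpina3 gene contributes to the signal of Serpina3i, or the reverse, was not tested.

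**Figure D1:**
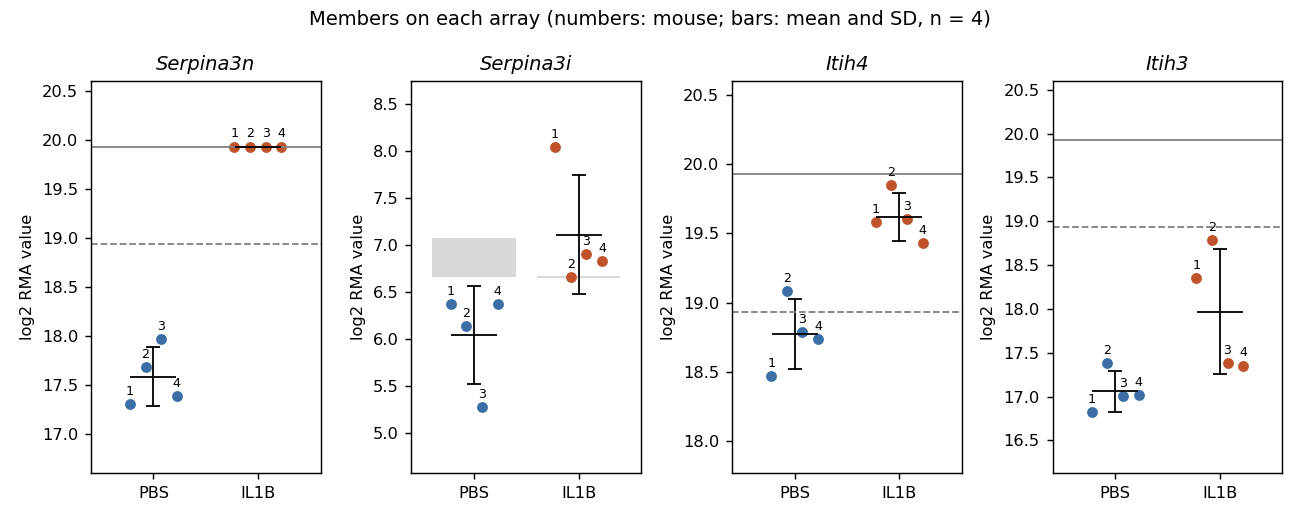
Log2 RMA value (vertical axis, a separate range for each gene) of the 4 measured members in the 4 PBS mice (blue) and the 4 IL1B mice (orange), with the mouse number at each point and the mean and SD as bars; the solid grey line is the ceiling of the scale at 19.93, the dashed line its upper end at 18.93 and the grey bands the range of array backgrounds. Serpina3n stands at the ceiling in every IL1B mouse, Itih4 and Serpina3i do not overlap between groups, and Itih3 does.

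In all, 2 of the 4 measured members were called higher, against 7.19% of all genes, and 0 were called lower, against 5.32%. The unadjusted p-values of the 4 members lay between 8.76e-08 and 0.0179 and all their differences were positive, so none was lower at an unadjusted p under 0.05 either. At an adjusted p of 0.15, the cutoff used in the study, 4 of 4 were called higher, against 11.9% of all genes. In 3 of the 4, Serpina3n, Itih4 and Serpina3i, each IL1B array stood above each PBS array, which held for 9.81% of all genes. With 4 measured members these shares describe the members and are not a test of the cluster. Over all genes 1594 were called higher and 1179 lower (1367 and 1523 after quantile normalization), and the median log2 fold change was -0.06.

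The responses of Itih3 and Itih4, neighbouring genes on chromosome 14, were compared with each other and with those of Itih1 and Itih2, the heavy chains of the major ITI complex. The values used were differences between 2 genes on the same array, and the first pair was tested by exact permutation (two-sided, all 70 assignments of the arrays). The pairs with Itih1 and Itih2 were chosen after their values were seen and are given without a test. The PBS arrays gave Itih4 minus Itih3 values of 1.64 to 1.78, the IL1B arrays values of 1.06 to 2.22. The mean difference in response was -0.06 (exact p = 0.771). It may be too low, since Itih4 was near the ceiling on all IL1B arrays, so these values do not settle whether Itih4 rose more than Itih3. The sign turned when IL1B 1 (0.07) or IL1B 2 (0.13) was left out.

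The differences of Itih1 and Itih2 were close to 0. The log2 values of Itih1 were 17.28, 17.38, 17.39 and 17.23 in PBS and 17.35, 17.50, 17.15 and 17.35 in IL1B, a difference of 0.02 ± 0.13 (log2 fold change ± SE, as in later values of this form; limma adjusted p = 0.939). That of Itih2 was -0.10 ± 0.15 (adjusted p = 0.728), with the identical value of 17.96 on 3 of the 8 arrays. The difference in response was 0.82 for Itih4 against Itih1 and 0.94 against Itih2. Both may be understated, Itih4 being near the ceiling, and after quantile normalization they were 0.64 and 0.74. With 1 array left out these were 0.74 to 0.91 and 0.86 to 1.03.

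For Itih3 the difference in response was 0.89 against Itih1 and 1.01 against Itih2, and 0.67 to 1.10 and 0.73 to 1.24 with 1 array left out. The lowest IL1B value of Itih3 minus Itih1 was 0.0045 and the highest PBS value 0.0023, so the groups barely separated. Among the other ITI genes, Ambp was at 0.19 ± 0.18 (adjusted p = 0.554), with log2 values of 18.67 to 18.78 in PBS, where IL1B 1 (19.01) and IL1B 2 (19.36) stood above that range, IL1B 3 (18.55) below it and IL1B 4 (18.73) inside it. Itih5, a heavy chain gene expressed outside hepatocytes in many tissues, was at -1.16 ± 0.43 (adjusted p = 0.119).

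IL1B 1 and IL1B 2 differed from IL1B 3 and IL1B 4 in more than Itih3. The mean of 10 neutrophil markers was 4.50 to 5.13 in the PBS mice. It reached 9.69 in IL1B 1 and 10.67 in IL1B 2 but only 6.54 in IL1B 3 and 6.60 in IL1B 4, and 6 of the 10 were called higher and 0 lower. The means of the PBS mice, IL1B 3 and IL1B 4 lay below the background of their arrays, so the size of these gaps is uncertain. The mean of 10 macrophage and Kupffer cell markers was 9.39 to 10.50 in the PBS mice, 12.77 in IL1B 1 and 12.17 in IL1B 2, whereas IL1B 3 had 10.11 and IL1B 4 had 9.63, with 1 of 10 called higher and 0 lower. The part of these cells in the values of Itih3 was not tested. Whether Serpina3n and Itih4 followed the same split cannot be read from these values, since both were at or near the ceiling on all 4 IL1B arrays. The hepatocyte marker mean, over 10 genes of which 5 were near the ceiling in both groups, was 17.38 to 17.53 in PBS and 17.56 to 17.65 in IL1B. Of these 10 genes, 1 was called higher, Hnf4a, and 0 lower. Their median log2 fold change was 0.00, so the mean does not stand for the markers as a set. Of 10 endothelial markers 2 were called higher and 5 lower, of 10 stellate cell markers 0 and 2, and of 5 cholangiocyte markers 1 and 0, while all 9 T, NK and B cell markers were at background in both groups. Over all genes 7.19% were called higher and 5.32% lower, the shares to set beside each marker count of this paragraph.

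**Figure D2:**
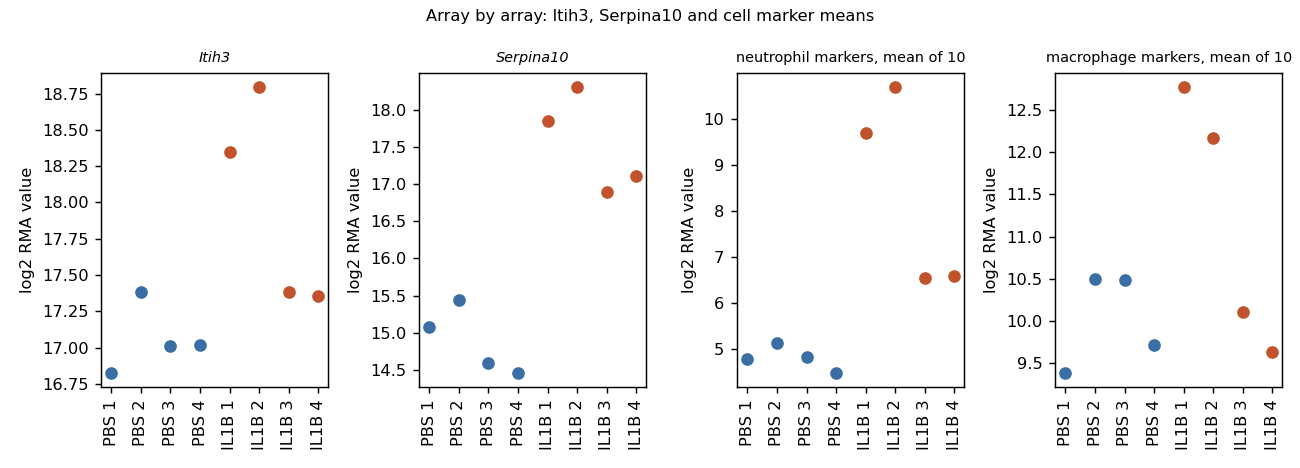
Log2 RMA value on each of the 8 arrays (PBS blue, IL1B orange) of Itih3, of Serpina10, and of the mean of 10 neutrophil and of 10 macrophage markers, each panel with its own vertical range. IL1B 1 and IL1B 2 stand above IL1B 3 and IL1B 4 in all 4 panels, while Serpina10 is separated from PBS in every IL1B mouse and Itih3 is not.

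Most of the other clade A serpins, the family that holds the Serpina3 genes, were not called. Of 18 measured genes, 2 were called higher, against 7.19% of all genes, and 1 lower, against 5.32%. The median log2 fold change was -0.00 against -0.06 over all genes, and includes genes at the ends of the scale, described next. Serpina10, which encodes the protein Z-dependent inhibitor of coagulation factor X, had log2 values of 15.08, 15.44, 14.60 and 14.47 in PBS and of 17.85, 18.30, 16.90 and 17.11 in IL1B. The groups did not overlap, and its log2 fold change was 2.64 ± 0.33 (adjusted p = 0.00116). Serpina7, the thyroxine-binding globulin gene, rose by 3.11 ± 0.62 (adjusted p = 0.0114), from values between 11.18 and 14.80 in PBS to values between 16.31 and 16.60 in IL1B. Serpina1a, an alpha-1-antitrypsin gene, was at -0.48 ± 0.12 (adjusted p = 0.0325), a call kept only when PBS 2 or IL1B 2 was left out (-0.52 to -0.44 over the 8 fits) and lost after quantile normalization and median centring.

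Much of this family could not be followed on the array. Among the 18 genes, 8 were at background in both groups, Serpina3a, Serpina3b and Serpina3j among them, and 3 were near the ceiling in both. Serpina1c and Serpina1d read 19.93, the ceiling, on all 8 arrays, and Serpina1b read 5.83 on all 8, so a change in these genes is not measured here. Beside the 3 called genes, 4 could be followed. The pseudogene Serpina4-ps1 was at -1.97 ± 1.10 (adjusted p = 0.292), with log2 values of 17.11, 16.68, 15.01 and 17.68 in PBS and 15.49, 11.01, 15.34 and 16.76 in IL1B. Serpina6, the corticosteroid-binding globulin gene, was at -0.53 ± 0.27 and Serpina11 at 0.16 ± 0.16. Serpina12 was at -0.01 ± 0.61 but exceeded background on only 1 array of each group, so this value says little of a change. Of 13 measured serpins of other clades, 0 were called higher and 2 lower, against 7.19% and 5.32% of all genes, with a median of 0.01. Serpind1, the heparin cofactor II gene, fell by 0.62 (SE 0.12, adjusted p = 0.00823), from 18.10 to 18.21 in PBS to 17.46 to 17.67 in IL1B, and Serpinb8 was at background in both groups.

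**Figure D3:**
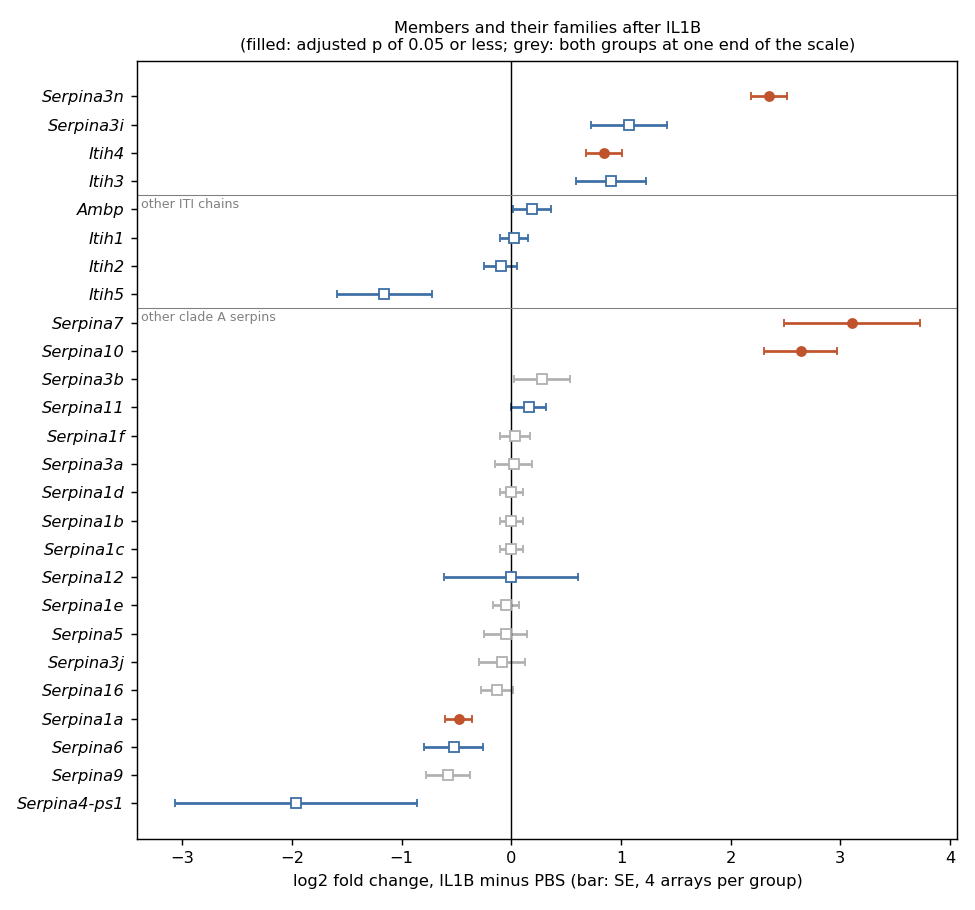
Log2 fold change of IL1B against PBS with its SE (4 arrays per group) for the 4 measured members, 4 other ITI genes and 18 other clade A serpin genes. Filled points passed an adjusted p of 0.05, open squares did not, and grey squares were at background or near the ceiling in both groups; Serpina3n, Serpina7 and Serpina10 lie above 2, and 11 of the 18 other serpins are grey, so their position near 0 measures no change.

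Genes for proteins that handle hyaluronan, the partner of the ITI heavy chains, were called in both directions. Of 15 measured genes of the ITI and hyaluronan list, 3 were called higher, against 7.19% of all genes, and 1 lower, against 5.32%. The median was 0.02, and 6 of the 15 were at background in both groups. Lyve1, a hyaluronan receptor gene of the sinusoidal endothelium, rose by 3.18 ± 0.63 (adjusted p = 0.0114), from 9.32 to 12.95 in PBS to 13.67 to 14.31 in IL1B. Stab2, also on this list and on that of the endothelial markers, had a negative difference of -0.70 ± 0.23 (adjusted p = 0.0812). It was called lower only with quantile normalization, with array weights or without IL1B 2. Hyal2, a hyaluronidase gene, fell by 1.07 (SE 0.19, adjusted p = 0.00704). The hyaluronan receptor gene Cd44 and the proteoglycan gene Vcan did not exceed background in PBS, and the bounds on their rise were 0.46 and 0.49. Their calls were lost without PBS 1 or PBS 4, that of Cd44 also without IL1B 2, and that of Vcan also without PBS 3 or IL1B 1. Tnfaip6, whose product transfers heavy chains to hyaluronan, was at background in both groups, as were Ptx3, Hapln1 and the 3 hyaluronan synthase genes Has1, Has2 and Has3.

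Other inhibitors were called in both directions, and 1 protease was called higher. Of 17 measured inhibitor genes outside the serpins, 3 were called higher and 1 lower (median 0.00), against 7.19% and 5.32% of all genes. In both groups 3 of the 17 were at background and 2 near the ceiling. A2m, the alpha-2-macroglobulin gene, was at background in PBS, had log2 values of 11.60, 12.79, 6.84 and 9.15 in IL1B and was higher by at least 3.30 (adjusted p = 0.0162). Timp1, a metalloproteinase inhibitor gene, was higher by at least 0.51 (adjusted p = 0.00155), Reck fell by 0.65 (SE 0.14, adjusted p = 0.0175), and Spink1 was at background in both groups. Of 16 measured proteases, 6 were at background in both groups. In this list 1 was called higher and 0 were called lower, against 7.19% and 5.32% of all genes. The called gene was Mmp9, higher by at least 0.38 (limma adjusted p = 0.0292), a call kept only when IL1B 3 or IL1B 4 was left out. Elane and Prtn3, the genes of neutrophil elastase and proteinase 3, were at background in PBS. They read 7.12 and 5.84 in IL1B 1 and 9.92 and 9.22 in IL1B 2, against values between 3.88 and 4.65 in IL1B 3 and 4 (limma adjusted p = 0.292 and 0.392). The Prtn3 value in IL1B 1 was below the background of that array (6.67). Klk1, a kallikrein gene, was at -1.28 ± 0.74 (adjusted p = 0.308), at background in IL1B.

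Stat3, Cebpb and the NF-kappa-B genes belong to the signalling chain that is known to drive acute-phase transcription in hepatocytes. Of 15 measured regulators, 10 were called higher and 0 lower, against 7.19% and 5.32% of all genes. The median was 1.34, or 1.21 with genes at the ends of the scale set at their bounds. Osmr, the oncostatin M receptor gene, rose by 4.54 ± 0.41, Stat3 by 2.21 ± 0.22, Cebpb by 2.10 ± 0.24 and Il6ra, the interleukin 6 receptor gene, by 2.01 ± 0.31. Rela, which encodes an NF-kappa-B subunit, rose by 1.85 ± 0.13, Hnf4a by 1.25 ± 0.15 and Il6st, the shared receptor chain gp130, by 1.21 ± 0.15. Nfkb2 was at background in PBS and higher by at least 3.28, and Socs3, the feedback inhibitor of STAT3, by at least 0.85. Cebpd was called with PBS arrays at background and IL1B values from 6.15 to 6.97, which gives no bound above 0. Cebpa had a negative difference, at -0.78 ± 0.24 (adjusted p = 0.0657), and was called lower with array weights, with the filter on dim genes or without IL1B 2. Il6 itself was at background in both groups, and Relb was as well.

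The genes whose log2 values, taken from their own PBS mean, ran closest to those of the called members over the 8 arrays were found by the mean absolute difference. For Serpina3n these were Pik3ap1, a phosphoinositide 3-kinase adaptor gene (0.139), the ezrin gene Ezr (0.140) and the tumour necrosis factor receptor gene Tnfrsf1a (0.171). Their log2 fold changes were 2.49 ± 0.19, 2.18 ± 0.16 and 2.12 ± 0.18. For Itih4 they were Slf2, a gene of DNA repair (0.0948), the kinesin gene Kif5b (0.105) and the interferon regulatory factor gene Irf2 (0.108), at 0.75 ± 0.15, 0.90 ± 0.15 and 0.86 ± 0.13. None of these 6 genes reached the upper end of the scale, unlike Serpina3n and Itih4, so the likeness holds for the values as read.

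The 4 log2 fold changes kept their sign in every setting tried. For Serpina3n they lay between 2.25 and 2.48 and for Itih4 between 0.66, after quantile normalization, and 0.95. The span of Serpina3n leaves out the spread among IL1B mice, whose values were at the ceiling, and leaving out any 1 IL1B array gave 2.35. That of Itih4 may understate this spread, its IL1B values being near the ceiling. Serpina3i lay between 0.76 and 1.22, apart from its bound, and Itih3 between 0.64 and 1.12.

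**Figure D4:**
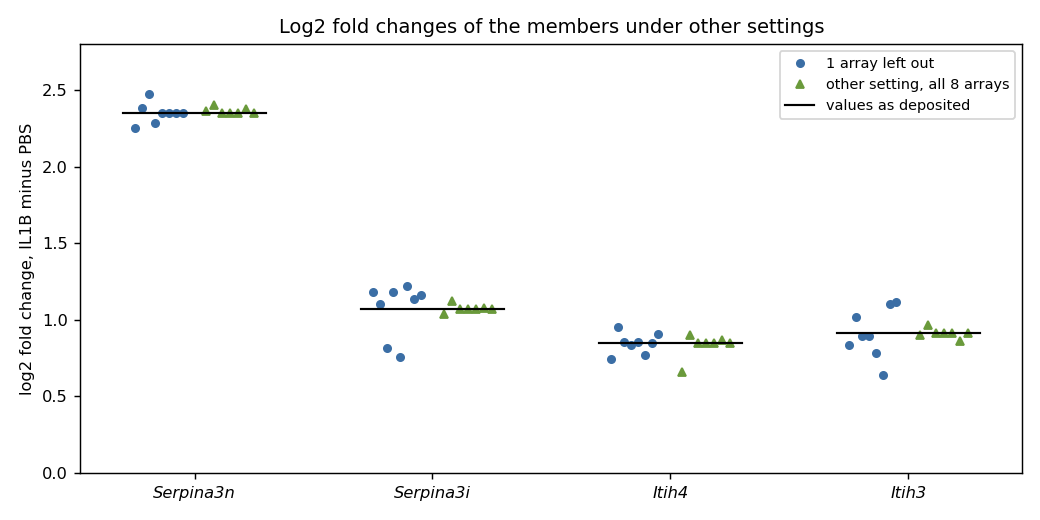
Log2 fold change of the 4 measured members, IL1B minus PBS, with the values as deposited (black line), with 1 of the 8 arrays left out (blue circles) and under other settings with all 8 arrays (green triangles); the vertical axis starts at 0. All values lie above 0, those of Serpina3n between 2.25 and 2.48 and those of Itih3 between 0.64 and 1.12.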

How the data were processed

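The deposited values are log2 expression values of liver RNA from 4 PBS and 4 IL1B mice, which the authors made with Affymetrix Power Tools (GC correction where available, intensity scaling and RMA per probe set). The tool's version was not given in the sources used here. Because RMA normalizes between arrays, a shift common to all genes would be partly removed. Features with 1 gene symbol in the platform annotation (23521 of 41345) were averaged by symbol, following the study's methods, which gave 22180 genes. No column of sample values was left unused.

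Groups came from the sample titles. Genes were tested with limma 3.58.1 in R 4.3.3 (lmFit and eBayes, group as the only factor, 8 arrays), with Benjamini-Hochberg adjustment over all genes and a call at 0.05 or less, after the procedure was tested on simulated data. The arrays carry no batch label, at most 0.341% of features were equal between any pair of arrays, and correlations between arrays ran from 0.965 to 0.993. The spread that the p-values measure is that between these mice, and 4 arrays per group limit the precision. Where all arrays of a group lay within 1 log2 unit of the ceiling, or at or below background, a bound replaced the fold change, a rule set after the data were seen. For Itih4, with no IL1B array at the ceiling itself, the fold change is given as read and may be understated.

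The members, the 13 gene lists (158 of 169 entries measured) and the tests were chosen with earlier results of these data known. Text names are the members, called list genes, for each list up to 4 uncalled genes with the highest and lowest log2 fold changes, and the 3 genes nearest to Serpina3n and Itih4. Itih1, Itih2, Serpina6, Serpina12, Olfr374 and the genes given only as being at background, at the ceiling or at a fixed value were named after their values were seen. Promoters are RefSeq sequences (GRCm38.p6) matched by symbol for 7 of 10 members, and were aligned end to end with Biopython 1.88 without penalty for end gaps. Figures were drawn with matplotlib 3.10.9. The alternatives are named in the closing section.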

Additional observations from a re-analysis of the deposited data

Results flagged for a closer look

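A value was singled out where 1 array of a group of 4 stood apart from the other 3 by Dixon's test, which divides the gap to the nearest neighbour by the range of the group. Of 113 groups of 4 arrays looked at, for 60 of the measured genes named above, 8 had such a value, and chance gives about 1 in 20. None was in a measured member. The ITI heavy-chain gene Itih2, against which the members Itih4 and Itih3 were compared, had 2 of them, with log2 values of 18.47 in PBS 2 against 17.93 to 17.96 in the other PBS mice and of 18.05 in IL1B 4 against 17.96 in the other 3. Timp1 read 6.24 in IL1B 2 against 7.63 to 7.70, and Tnfaip6, at background in both groups, read 4.08 in IL1B 2 against 4.94 to 5.04. In PBS 1, Cebpb read 10.22 against 11.06 to 11.22 and Reck 7.28 against 7.53 to 7.55. In PBS 2, Socs3 read 6.34 against 5.80 to 5.86 and Hapln1 3.38 against 3.76 to 3.82, both at background.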

How the results depend on the processing

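Serpina3n and Itih4 stayed called, and Itih3 and Serpina3i not called, under array weights, quantile normalization, eBayes with a robust trend, median centring of the arrays, removal of dim genes, use of the brightest feature, and with each array left out in turn. The count of members called higher was 2 in these settings and at a threshold of 0.01, and 4 at a threshold of 0.15; that of members called lower was 0 throughout. No label says that replicate numbers pair the mice. Deviations from the group mean correlated at -0.07, 0.22, 0.05 and 0.12 between same-numbered mice across genes. Between mice of other numbers they correlated at -0.19 to 0.08, so these values do not settle whether the numbers pair the mice. With the replicate number as a block, Serpina3i was called (1.07, adjusted p = 0.0473), so that 3 members were. The block left Itih4 minus Itih3 at -0.06 and moved all calls from 2773 to 2562.

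With 1 array left out, Itih4 minus Itih3 ranged from -0.26 to 0.13, turning positive without IL1B 1 (0.07) or IL1B 2 (0.13). After quantile normalization Itih4 minus Itih2 was 0.74. Over all genes, 1759 calls were left without PBS 1 and 1769 without IL1B 1; the cause was not tested. Signal at the ceiling limits Serpina3n to a lower bound and hides its spread among IL1B mice. Signal near the ceiling may understate the change and spread of Itih4, and signal near background limits Serpina3i.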
